A study of Mus musculus with 12 samples.

Results

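Wild-type CD8 T cells were compared at 48 h and at 0 h, using 6 of the 12 RNA-seq libraries of the series. The comparison was chosen with earlier results of these data known. Its libraries were taken by their labels, 3 labelled WT at 0 h and 3 labelled WT at 48 h. All 6 came from spleens of C57BL/6 mice whose genotype is given as WT, with total RNA taken from their CD8 T cells as primary cells, and the labels name no allele, transgene or agent for them. The series title concerns tRNA m1A modification, cholesterol biosynthesis and CD8 T cells, and its other 6 libraries, labelled Trmt61A-cKO, were not used in the main comparison. No label read here says how the cells were purified, how old the mice were, or how the cells spent the 48 h. Nor is it stated that a replicate number is a single mouse, so p-values rest on differences among 3 libraries a group that may be partly technical.

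A resting CD8 T cell circulates through lymphoid organs as a small cell kept quiet by factors such as KLF2, FOXO1 and TCF-1, and it depends on interleukin 7 to survive. Signals through the T cell receptor and costimulatory receptors make such a cell grow, switch its metabolism towards glycolysis and biosynthesis, enter the cell cycle and begin to make cytokines and granzymes. The genes below are ordered along that path: receptors, secreted products, homing, transcription factors, the cell cycle, biosynthesis, protein turnover and the cytoskeleton.

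Counts per library ran from 35084727 to 40270659, with a median count of 1058 for a tested gene. Levels are CPM, counts scaled to a common library size, after TMM scaling of library sizes, and are therefore shares of a library: RNA per cell was not measured. The first principal component held 89.67% of the variance and separated the times, from -95.99 to -92.76 at 0 h against 92.15 to 96.51 at 48 h. Replicate 3 stood apart on the second component, which held 3.433%, at -34.1 at 0 h and -14.34 at 48 h against 7.049 to 17.47 for the other 4 libraries. It had 0 to 2 counts of each of the Y-linked genes Ddx3y, Uty, Kdm5d and Eif2s3y at both times, against 694 or more in replicates 1 and 2. Counts of calls without both libraries of replicate 3 are given below. The defining CD8 T cell markers were present in every library, with Cd8a at 1325, 1468 and 1412 CPM at 0 h against 675, 682 and 684 CPM at 48 h and with Cd8b1 at 1050.2, 1183 and 1268 CPM at 0 h against 312, 294 and 311 CPM at 48 h. Cd4 stood at 28.4, 19.9 and 25.4 CPM at 0 h against 20.8, 16.2 and 18.6 CPM at 48 h.

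Most of the measured transcriptome differed between the 2 times. Of the 11853 genes tested with edgeR's quasi-likelihood test, 4580 were higher at 48 h (38.6%) and 4638 lower (39.1%) at an adjusted p under 0.05, so that 77.8% were called in either direction. At least 2-fold changes were called higher for 2535 genes (21.4%) and lower for 2296 (19.4%). Large changes were more often upward: 720 genes were at least 8-fold higher and 395 at least 8-fold lower, and 189 and 99 passed 64-fold. The median log2 fold change over all tested genes was -0.01, with quartiles of -0.79 and 0.85. Without both libraries of replicate 3, 4291 genes were called higher and 4286 lower. The 3 libraries of 1 time lay clear of the 3 of the other for 9550 tested genes (80.6%). Separation of the groups, where given below, is thus the usual outcome here. The value after ± is the standard error of a log2 fold change from 3 libraries a group, levels are listed for replicates 1 to 3 in that order, and a gene is said to have risen or fallen only where edgeR called it.

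**Figure D1:**
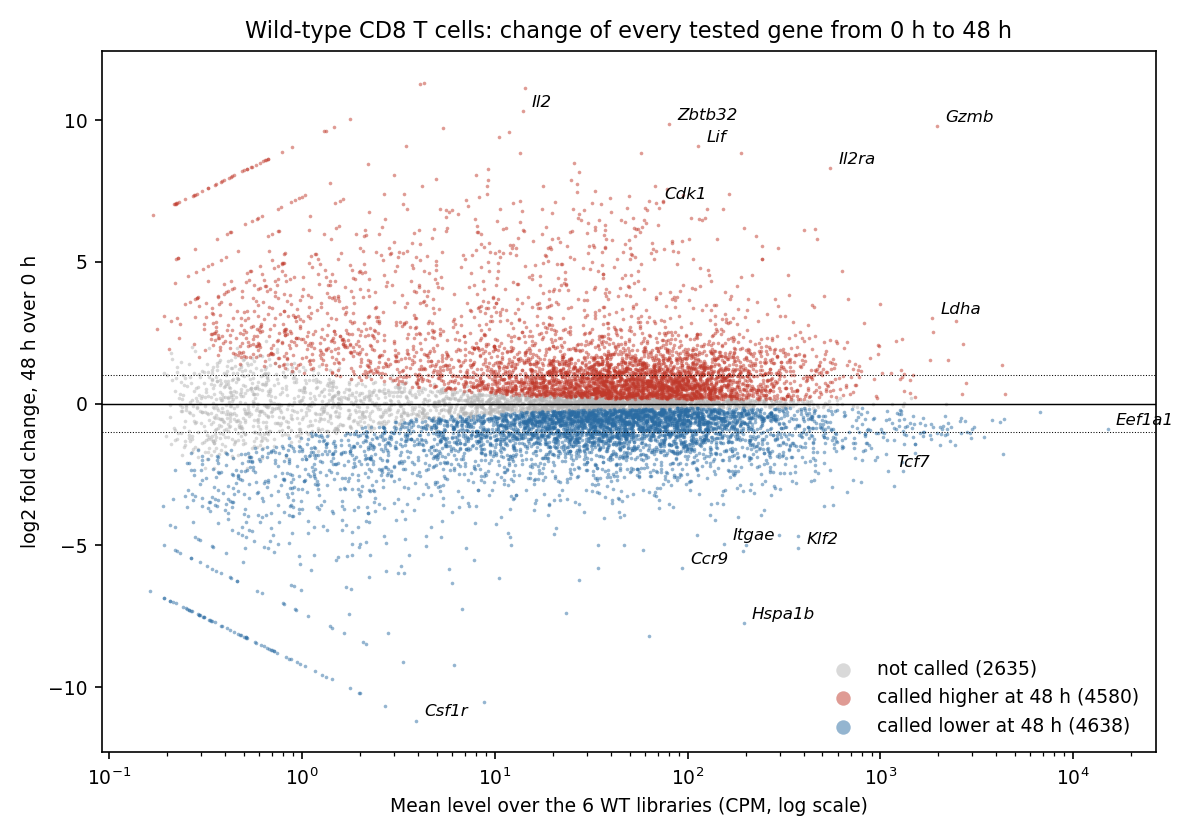
Log2 fold change of each of the 11853 tested genes (48 h over 0 h) against its mean level over the 6 WT libraries (CPM, log scale), with genes called higher in red, lower in blue and not called in grey; dotted lines mark 2-fold. Calls lie on either side of 0, 4580 higher and 4638 lower, and the straight diagonal rows at the left are genes with few or no counts at one of the times.

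The counts were spread over more genes at 48 h. In replicates 1 to 3, 611, 612 and 631 genes made up 50% of all counts at 0 h, and 811, 843 and 805 did so at 48 h. The top 100 genes held 23.8% to 25% of counts at 0 h and 19.1% to 19.8% at 48 h, and 62 genes were among the top 100 at both times. Eef1a1, a translation elongation factor, gave up the largest share of counts, from a mean of 1.93% to 1.07%. Next came Tpt1, from 0.657% to 0.199%, and the ribosomal protein genes Rpl13a, Rps24, Rps3a1, Rpl12 and Rplp1 were also among the 10 largest losses. The largest gain was that of Gzmb, the cytotoxic protease granzyme B, which reached 0.401% of counts at 48 h, followed by the chaperone gene Hsp90ab1 at 0.627% against 0.232% at 0 h. The glycolytic genes Pkm, Ldha, Eno1 and Pgk1 and the nucleolar genes Ncl and Npm1 were among the other gains. Some abundant genes hardly moved. Srrm2, which encodes a splicing-speckle protein, stood at 892, 949.98 and 909.9 CPM at 0 h against 915, 958 and 877 CPM at 48 h, and Actr2, a subunit of the actin-nucleating Arp2/3 complex, at 569, 578 and 633 CPM at 0 h against 585, 578 and 619 CPM at 48 h, with a log2 fold change of 0.00 ± 0.064. In all, 2012 genes (17.0%) had a 95% interval of the log2 fold change inside ±0.5, and 675 of these were nonetheless called higher or lower.

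The pathway column of the deposited table assigns 5018 of the tested genes to KEGG pathways, and 308 sets have at least 10 tested genes. Medians were above 0 in 137 sets and below 0 in 171, at least 1 in 11 and at most -1 in 13. DNA replication had the highest median, with 32 of 35 tested members higher and 1 lower (median log2 fold change 2.15), and Steroid biosynthesis the next, with 13 of 19 tested members higher and 5 lower (median log2 fold change 2.04). With the filter at a mean of 1 CPM their order was exchanged. The lowest belonged to Complement and coagulation cascades, with 7 of 36 tested members higher and 24 lower (median log2 fold change -3.55). Its median was -1.53 with the filter at a mean of 1 CPM, which left 20 members with 13 lower, and Staphylococcus aureus infection was then lower, at -2.82. These counts are read against 38.6% higher and 39.1% lower over all tested genes. No set test was made, and the sets share members.

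**Figure D2:**
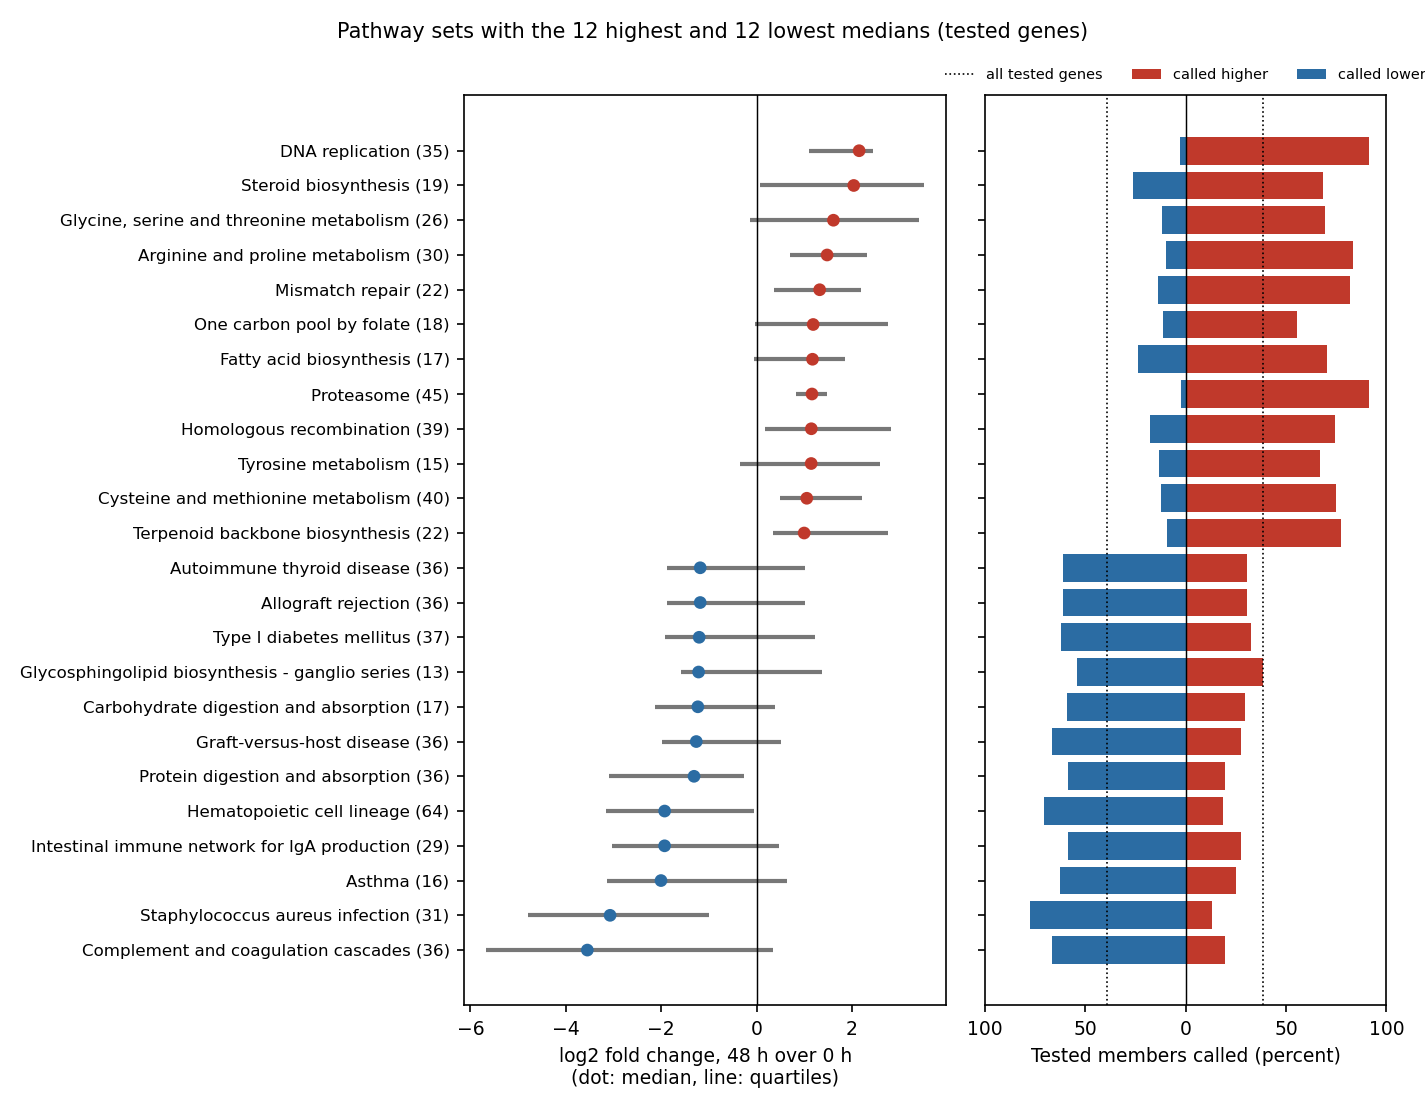
Pathway sets with the 12 highest and 12 lowest median log2 fold changes (48 h over 0 h; tested genes in brackets). Left, medians as dots and quartiles as lines; right, percent of tested members called higher (red) and lower (blue), with the dotted lines at 38.6% and 39.1%, the shares over all tested genes. DNA replication heads the upper group and Complement and coagulation cascades closes the lower one, a rank it did not keep with the filter at a mean of 1 CPM.

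The antigen receptor machinery was lower at 48 h. In the list of T cell receptor complex genes and proximal kinases, 2 of the 19 tested members were called higher and 16 lower, with a median log2 fold change of -0.81 against -0.01 over all tested genes. Counts of this and later lists are read against 38.6% higher and 39.1% lower over all tested genes. Cd3g, a signalling chain of the complex, fell from 520.4, 562 and 546 CPM at 0 h to 148, 154 and 141 CPM at 48 h (log2 fold change -1.88 ± 0.064, edgeR adjusted p = 4.67e-10). Cd8b1, the beta chain of the CD8 coreceptor, changed by -1.93 ± 0.077, more than Cd8a at -1.04 ± 0.060 on the log2 scale. Among the kinases and adaptors, Lck, which phosphorylates the receptor chains, went from 977, 1095 and 1023 CPM at 0 h to 521, 514 and 527 CPM at 48 h, and Lat, the membrane adaptor downstream of them, changed by -1.10 ± 0.083 on the log2 scale. For each of these genes every 0 h library lay above every 48 h library, and 80.6% of all tested genes likewise had groups without overlap. The 2 members that rose did so by little: Cd5, a surface brake on receptor signalling, by 0.31 ± 0.067 and the adaptor Lcp2 by 0.28 ± 0.067 on the log2 scale. In bulk RNA, fewer cells of a type and less RNA of a gene per cell cannot be told apart, here and in the results that follow.

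Most genes of the coreceptor and costimulation list went the other way. Of its 15 tested members, 11 were called higher and 3 lower, with a median log2 fold change of 2.62. Il2ra is counted both in that list and among the cytokine receptor subunits. Il2ra, the alpha subunit that gives the interleukin 2 receptor high affinity, had 3.62, 3.49 and 3.16 CPM at 0 h against 1058, 1068 and 1151 CPM at 48 h (log2 fold change 8.32 ± 0.092, edgeR adjusted p = 7.35e-13). Tnfrsf9, the costimulatory receptor 4-1BB, had 11, 10.01 and 9.01 CPM at 0 h against 422, 520.5 and 482 CPM at 48 h, and Tnfrsf4, which encodes OX40, had 5.56, 4.61 and 2.75 CPM at 0 h against 150.04, 194 and 181 CPM at 48 h. Every 48 h library was many times above every 0 h library for all 3. Smaller rises were seen for Icos (3.34 ± 0.072) and Cd28 (1.23 ± 0.079), both of the CD28 family, and Tfrc, the transferrin receptor, rose by 3.79 ± 0.068 on the log2 scale. Cd27, Slamf6 and Cd226 fell, with log2 fold changes of -1.16, -1.60 and -1.04. Cd69, an early activation antigen, was not called: its 0 h libraries held 234, 159 and 92.8 CPM, spread on either side of the 163, 181 and 192 CPM at 48 h (edgeR adjusted p = 0.606).

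Inhibitory receptors split. Of 12 tested, 7 were higher and 4 lower, with a median log2 fold change of 0.82, which was 2.36 with the filter at a mean of 1 CPM and 0.54 without 0 h replicate 2. Ctla4, a CD28-like receptor that competes for the same ligands, rose from 12.6, 5.45 and 4.35 CPM at 0 h to 396, 456 and 479 CPM at 48 h. Lag3 rose by 6.54 ± 0.27, Tigit by 4.43 ± 0.34, Pdcd1, which encodes PD-1, by 4.27 ± 0.28, and Cd200 by 4.05 ± 0.12 on the log2 scale. The members that fell, Cd200r1, Cd244a, Lair1 and Entpd1, were low at 0 h already, at means of 4.18, 1.22, 8.44 and 2.1 CPM, and the call of Entpd1 was lost with the replicate block and without any of 3 libraries. Havcr2, which encodes TIM-3, stood at 1.01, 0.0559 and 0.599 CPM at 0 h against 1.24, 0.843 and 1.15 CPM at 48 h, with overlapping groups and no call.

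Cytokine receptor subunits were more often lower than higher. In the list of cytokine receptor subunits 7 of the 23 tested members were called higher and 14 lower, with a median log2 fold change of -0.53. Il12rb2, the inducible subunit of the interleukin 12 receptor, rose from 2.2, 1.48 and 2.1 CPM at 0 h to 281, 362 and 333 CPM at 48 h, and its partner Il12rb1 by 3.41 ± 0.097 on the log2 scale. Il2rb, the subunit shared by the interleukin 2 and 15 receptors, rose by 2.25 ± 0.064, whereas Il2rg, the common gamma chain, fell by 0.93 on the log2 scale. Il7r, the interleukin 7 receptor, fell from 1108, 1195 and 511 CPM at 0 h to 89.7, 69.3 and 71.7 CPM at 48 h (log2 fold change -3.61 ± 0.27, edgeR adjusted p = 2.34e-07). Replicate 3 was the low library at 0 h, below replicates 1 and 2, but still far above all 48 h libraries. Il6ra, the interleukin 6 receptor, had 207, 266 and 264 CPM at 0 h against 21.1, 14.5 and 13 CPM at 48 h, and its signalling partner Il6st fell by 2.23 on the log2 scale. Tgfbr2, the ligand-binding receptor of TGF-beta, fell by 2.34, while Tgfbr1, its partner, was not called at 0.03 ± 0.082 on the log2 scale. The interferon receptor genes Ifngr1, Ifngr2, Ifnar1 and Ifnar2 were all among those that fell, by 0.29 to 1.57 on the log2 scale.

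Secreted products rose for the most part. In the cytokine list 16 of the 20 tested members were called higher and 2 lower, with a median log2 fold change of 2.95. Ifng, the effector cytokine interferon gamma, had 1.27, 0.335 and 0.871 CPM at 0 h against 327, 358 and 444 CPM at 48 h (log2 fold change 8.83 ± 0.25, edgeR adjusted p = 1.26e-10). Lif, a cytokine of the interleukin 6 family, had 0.347, 0.587 and 0.299 CPM at 0 h against 190.4, 268 and 217 CPM at 48 h, and Tnfsf11, which encodes RANKL, rose by 6.86 ± 0.18 on the log2 scale. Neither showed any overlap between the groups. Il2, the T cell growth factor, had 2 counts over the 3 libraries at 0 h and 29.4, 26.1 and 28.7 CPM at 48 h, a ratio of 1502 (95% counting interval 416 to 12411), where the interval covers counting error only. Csf2, which encodes GM-CSF, had 1 count at 0 h and 6.5, 5.53 and 8.8 CPM at 48 h, a ratio of 749 (95% counting interval 134 to 29615). Il3, a growth factor of myeloid cells, had 0 counts at 0 h and 8.63, 5.37 and 10.7 CPM at 48 h, at least 296-fold higher against a floor of 3 counts over the 0 h group. Tnf rose by 2.60 ± 0.20 and Lta, the lymphotoxin alpha gene, by 4.09 ± 0.11 on the log2 scale, while Ltb, its membrane-bound partner, fell from 575, 643 and 691 CPM at 0 h to 277, 281 and 254 CPM at 48 h. Tnfsf10, the death ligand TRAIL, fell by 0.92 on the log2 scale.

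Among the 8 tested chemokines, 6 were higher and 1 lower, with a median log2 fold change of 2.97. That median was 1.43 without 0 h replicate 2, 1.88 without 48 h replicate 2 and 1.54 without 48 h replicate 3. Ccl3, an inflammatory chemokine, had 3.62, 1.15 and 2.78 CPM at 0 h against 204, 230.2 and 247 CPM at 48 h, and Ccl4, its close relative, had 1.82, 0.503 and 1.61 CPM at 0 h against 123, 110.1 and 121 CPM at 48 h. Xcl1, which attracts cross-presenting dendritic cells, rose by 4.91 ± 0.14 on the log2 scale. All 3 were low in every 0 h library and clear of the 48 h range. Ccl5, another inflammatory chemokine, fell by 1.81 on the log2 scale, from 27.7, 13.5 and 22.3 CPM at 0 h to 5.34, 6.71 and 6.05 CPM at 48 h, with every 48 h library below every 0 h library.

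Cytotoxic granule genes moved in both directions, 5 of 11 tested members higher and 6 lower (median log2 fold change -0.53). These shares, 45.5% and 54.5%, stood against 38.6% and 39.1% over all tested genes. Gzmb had 5.07, 3.61 and 4.54 CPM at 0 h against 3393, 4121 and 4253 CPM at 48 h (log2 fold change 9.80 ± 0.15, edgeR adjusted p = 7.05e-12), and its intracellular inhibitor Serpinb9 rose by 3.49 ± 0.11. Prf1, the pore-forming protein perforin, fell from 57.4, 75.3 and 82.3 CPM at 0 h to 28.4, 28.6 and 27.1 CPM at 48 h. Nkg7, a granule membrane protein, and Ctsw, a protease of cytotoxic cells, fell by 1.07 and 2.58 on the log2 scale. Gzma, which encodes granzyme A, fell from 9.21, 5.23 and 11.1 CPM at 0 h to 0.324, 0.211 and 0.244 CPM at 48 h. Granzyme B and its inhibitor were thus higher in every 48 h library, and perforin and granzyme A lower. Gzma also stands in the list of NK cell markers, whose defining members Ncr1, Klra4 and Klra8 had 0 counts at 48 h and means of 1.75, 1.005 and 1.49 CPM at 0 h. Their part in the fall of Gzma was not tested.

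Genes that direct where a T cell travels were mostly lower at 48 h. In the list of chemokine and homing receptors, 5 of the 19 tested members were called higher and 11 lower, with a median log2 fold change of -1.54 (-0.90 with the filter at a mean of 1 CPM). Ccr9, the receptor for the small-intestinal chemokine CCL25, fell from 169.5, 186 and 199 CPM at 0 h to 4.32, 3.03 and 2.51 CPM at 48 h (log2 fold change -5.82 ± 0.16, edgeR adjusted p = 1.08e-10). S1pr1, which guides exit from lymphoid organs, fell from 433, 431 and 493 CPM at 0 h to 33.2, 29.5 and 25.5 CPM at 48 h. No 48 h library reached the 0 h range of either gene. Cxcr4 fell by 4.63 and Cxcr6 by 3.32 on the log2 scale. Ccr7, which also guides cells into lymph nodes, rose by 0.59 ± 0.077 on the log2 scale, from 376, 379 and 394 CPM at 0 h to 521, 639.6 and 573 CPM at 48 h. Ccr4, a receptor for CCL17 and CCL22, had 0.579, 0.978 and 1.03 CPM at 0 h against 67.4, 60.4 and 68.9 CPM at 48 h.

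Integrin subunits were divided as well, 3 of 11 tested members higher and 7 lower (median log2 fold change -1.04). Itgae, which encodes CD103 and binds epithelial E-cadherin, fell from 248, 330.4 and 317 CPM at 0 h to 10.9, 11 and 6.92 CPM at 48 h. Its partner Itgb7 fell from 878, 1021 and 1060.1 CPM at 0 h to 134, 136 and 116 CPM at 48 h, and Itga4, which pairs with Itgb7 or with Itgb1, fell by 2.79 on the log2 scale. For Itgb7 and Itga4 the 48 h libraries were tightly grouped far below the 0 h range. Itgb1 rose by 1.52 ± 0.070 and Itgav by 1.05 on the log2 scale.

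**Figure D3:**
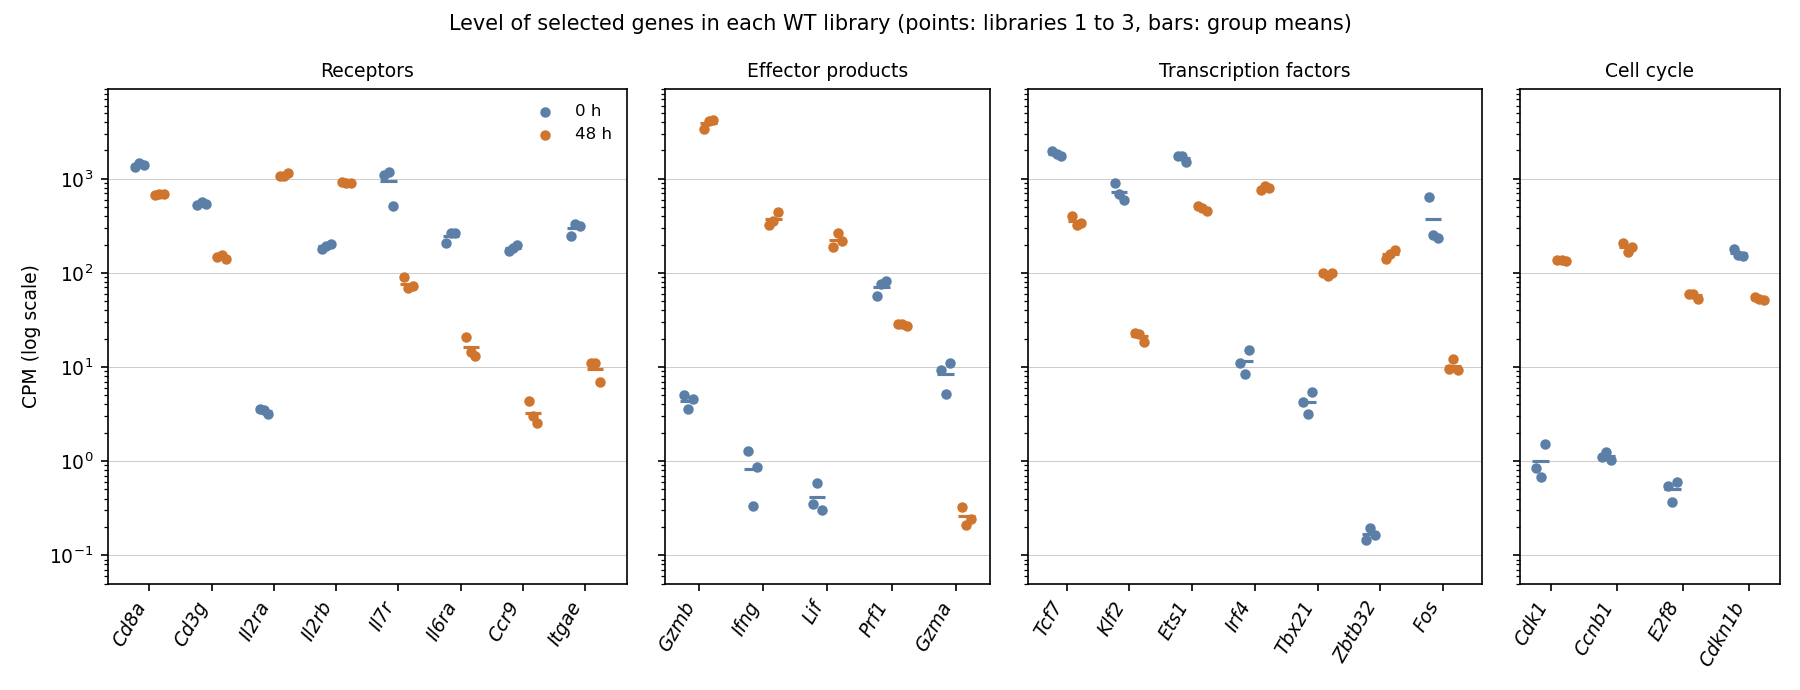
Level of selected genes in each WT library (CPM, log scale), with 0 h in blue, 48 h in orange, points for replicates 1 to 3 and bars for group means. For every gene drawn the points of the 2 times do not overlap, which holds for 80.6% of all tested genes. At 0 h replicate 3 is the low library for Il7r and replicate 1 the high one for Fos.

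Most transcription factors of the resting state fell and most activation factors rose. In the naive and memory list 4 of the 17 tested members were called higher and 10 lower, with a median log2 fold change of -0.45. Klf2, which maintains quiescence and drives S1pr1, fell from 893, 697 and 598 CPM at 0 h to 23.1, 22.6 and 18.6 CPM at 48 h (log2 fold change -5.09 ± 0.16, edgeR adjusted p = 2.07e-10). Tcf7, which encodes TCF-1, fell from 1951, 1829.9 and 1736 CPM at 0 h to 399, 319 and 337 CPM at 48 h, and Ets1, which supports T cell homeostasis, from 1738, 1741 and 1515 CPM at 0 h to 514, 487 and 454 CPM at 48 h. All 48 h libraries of the 3 genes lay well below the 0 h range. Lef1 and Foxo1 fell by 1.87 and 1.51 on the log2 scale. Exceptions in that list were Eomes, a T-box factor of memory and effector cells, which rose by 1.96 ± 0.11, and Bach2, a repressor of effector genes, which rose by 0.49 ± 0.075 on the log2 scale.

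In the activation and effector list 19 of the 24 tested members were called higher and 3 lower, with a median log2 fold change of 2.19. Zbtb32, a transcriptional repressor, had 0.145, 0.196 and 0.163 CPM at 0 h against 142, 159 and 177 CPM at 48 h, very low in every 0 h library. Irf4, which translates receptor signal strength into growth and effector programmes, had 10.9, 8.33 and 15.1 CPM at 0 h against 757, 829 and 793 CPM at 48 h, and Tbx21, the effector factor T-bet, had 4.2, 3.13 and 5.39 CPM at 0 h against 99.6, 92 and 101 CPM at 48 h. The 3 members of the NR4A family of orphan receptors induced by receptor signalling rose, Nr4a3 by 5.09 ± 0.22, Nr4a2 by 4.99 ± 0.21 and Nr4a1 by 2.27 ± 0.24 on the log2 scale. Myc, which drives growth of activated lymphocytes, rose by 1.71 ± 0.14 on the log2 scale, from 212, 165 and 128 CPM at 0 h to 517, 553 and 579 CPM at 48 h. Tox and Id2 fell, by 1.74 and 1.96, and Batf and Runx3 were not called, at 0.12 ± 0.11 and 0.03 ± 0.072 on the log2 scale.

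The AP-1 family divided by member. Fos fell from 640.4, 253 and 237 CPM at 0 h to 9.49, 12.3 and 9.31 CPM at 48 h, Jun from 819, 411 and 384 CPM at 0 h to 59.8, 72.8 and 66.7 CPM at 48 h and Junb by 1.66, all immediate early genes. Replicate 1 was the high library at 0 h for each, and even the lower replicates stayed above the 48 h range. Atf3 had 0.434, 0.391 and 0.0816 CPM at 0 h against 41.3, 62.2 and 55.8 CPM at 48 h, Fosl2 rose by 1.75 ± 0.19 and Mafg by 2.65 ± 0.086, and Jund was not called at -0.11 ± 0.12 on the log2 scale. Replicate 1 was also the high library at 0 h for 2 feedback genes: Dusp1, a MAP kinase phosphatase, had 206, 80.5 and 77 CPM at 0 h against 12.5, 15.7 and 13.6 CPM at 48 h, and Tnfaip3, the NF-kB inhibitor A20, had 538, 262 and 195 CPM at 0 h against 73.8, 97.7 and 78.7 CPM at 48 h. Shares of the AP-1 list (50% higher, 33.3% lower) and the NF-kB list (50%, 42.9%) were near the 38.6% and 39.1% over all tested genes. The AP-1 list had 6 of 12 tested members higher and 4 lower (median log2 fold change 0.32). The NF-kB list had 7 of 14 tested members higher and 6 lower (median log2 fold change 0.21). The same medians were 0.21 and 0.10 with upper-quartile scaling. In the NF-kB list Rel, the c-Rel subunit, rose by 2.13 ± 0.074 and Rela changed by -0.42 ± 0.060 on the log2 scale.

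Cytokine signalling genes downstream of the receptors moved in both directions. In the list of STAT factors, JAKs, PIM kinases and SOCS genes, 10 of the 18 tested members were called higher and 6 lower, with a median log2 fold change of 0.42. These shares, 55.6% and 33.3%, stood against 38.6% and 39.1% over all tested genes. Cish and Socs2, feedback inhibitors induced by STAT5, had 8.63, 12.4 and 16.3 CPM at 0 h against 219, 234 and 207 CPM at 48 h, and 1.48, 0.503 and 0.871 CPM at 0 h against 67.6, 60.2 and 68.9 CPM at 48 h, respectively. Pim2, a survival kinase, rose by 2.52 ± 0.070 on the log2 scale. Jak1, the kinase shared by many cytokine receptors, fell from 1533, 1567 and 1425 CPM at 0 h to 404, 364 and 359 CPM at 48 h, and Socs3, which restrains gp130 signalling, fell by 2.07 on the log2 scale. Stat5a rose by 1.17 ± 0.068 while Stat5b fell by 0.36 on the log2 scale.

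Across the table's own transcription factor families the balance was downward. Of 829 tested factor genes, 202 were higher and 432 lower, with a median log2 fold change of -0.37. C2H2 zinc finger factors, the largest family, had 63 of 395 higher and 230 lower, with a median of -0.55. The ETS family had 4 of 19 higher and 12 lower, and the THR-like nuclear receptors 2 of 12 higher and 7 lower. E2F factors, which drive S phase genes, were the family with the highest median, 3.32, with 8 of 10 higher and 1 lower, among the 16 families with at least 8 tested genes.

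Genes that hold lymphocytes quiet were lower at 48 h. In the quiescence list 3 of the 27 tested members were called higher and 23 lower, with a median log2 fold change of -1.51. Txnip, which limits glucose uptake, fell from 1406, 1139.7 and 1049 CPM at 0 h to 127, 153 and 129.7 CPM at 48 h. Btg1, an anti-proliferative gene, fell from 1464, 1227 and 1156 CPM at 0 h to 336, 329 and 313 CPM at 48 h, and Tsc22d3, a glucocorticoid-induced regulator known as GILZ, from 867, 786 and 515 CPM at 0 h to 24.7, 33.2 and 26.4 CPM at 48 h. All 48 h libraries lay below all 0 h libraries in each case. Pik3ip1, an inhibitor of PI3 kinase, and Dgka, which removes diacylglycerol, fell by 3.55 and 2.70 on the log2 scale. Cblb, a ubiquitin ligase that raises the activation threshold, rose by 1.13 ± 0.071 on the log2 scale. Of the 8 GIMAP GTPases, which support lymphocyte survival, 7 fell and Gimap7 rose (median log2 fold change -1.06). The DUSP phosphatases and Sprouty genes, which restrain MAP kinases, had 8 of 14 tested members higher and 5 lower (median log2 fold change 1.37). Dusp4 had 2.29, 3.07 and 2.26 CPM at 0 h against 89.1, 105 and 102 CPM at 48 h and Spry1 1.998, 1.29 and 1.01 CPM at 0 h against 39.5, 51 and 38.3 CPM at 48 h, whereas Dusp10 fell by 2.55 and Dusp2 by 1.38 on the log2 scale.

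Survival and clock genes gave mixed counts. The BCL2 family had 8 of 15 tested members higher and 4 lower (median log2 fold change 0.42), a median that was 0.18 without 0 h replicate 2, 0.24 without 48 h replicate 1 and 0.20 without 48 h replicate 2. Bcl2l1, which encodes the survival protein BCL-XL, rose from 11.1, 13.4 and 13.5 CPM at 0 h to 206, 207 and 207 CPM at 48 h, while Bcl2 itself was not called, at -0.16 ± 0.095, and Mcl1 fell by 0.54 on the log2 scale. Bmf, a pro-apoptotic BH3-only gene, fell by 2.11 on the log2 scale. Bbc3, which encodes the BH3-only protein PUMA, was called lower, but at 0 h its libraries held 62.1, 69.3 and 16.3 CPM against 16.6, 20.01 and 22.2 CPM at 48 h, so that replicate 3 lay below the 48 h range, and limma-voom did not call it. Among the clock genes 4 of the 18 tested members were called higher and 7 lower, with a median log2 fold change of -0.08, a median that changed sign to 0.11 with DESeq2 and to at most 0.09 under 3 other alternatives. Dbp, an output factor of the clock, fell from 19.9, 22.7 and 19.6 CPM at 0 h to 4.56, 4.13 and 3.17 CPM at 48 h, and Arntl, which encodes BMAL1, by 0.95. Sampling times of day were not given in the labels read here.

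The cell cycle genes had some of the largest rises. Among cyclins, cyclin-dependent kinases (CDKs) and their inhibitors, 17 of the 23 tested members were called higher and 4 lower, with a median log2 fold change of 2.51. Cdk1, the mitotic kinase, had 0.84, 0.671 and 1.52 CPM at 0 h against 137, 138 and 133 CPM at 48 h, and its partner Ccnb1, cyclin B1, had 1.1, 1.26 and 1.03 CPM at 0 h against 208, 168 and 186 CPM at 48 h. Both were below 2 CPM in every 0 h library and above 100 CPM in every 48 h library. Ccna2, Ccne2 and Ccnb2 rose by 6.56 ± 0.16, 6.10 ± 0.22 and 5.47 ± 0.12, and Cdk6, a G1 kinase, by 2.80 ± 0.11 on the log2 scale. Among the inhibitors Cdkn1b, which encodes p27 and keeps resting cells out of cycle, fell from 179.6, 154 and 152 CPM at 0 h to 54.9, 53.5 and 52 CPM at 48 h, whereas Cdkn1a, which encodes p21, had 0.521, 0.196 and 0.816 CPM at 0 h against 59, 86.2 and 90.01 CPM at 48 h. D cyclins differed: Ccnd2 rose by 1.17 ± 0.17 with 0 h libraries at 339, 457 and 626 CPM, and Ccnd3 was not called at 0.16 ± 0.083 on the log2 scale.

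E2F factors and the RB pocket proteins control entry into S phase. In the E2F and RB list 13 of the 19 tested members were called higher and 3 lower, with a median log2 fold change of 0.99. E2f8 and E2f7, the atypical repressors of the family, rose by 6.82 ± 0.15 and 6.67 ± 0.27 on the log2 scale, and E2f1, an activator, from 3.68, 3.1 and 4.11 CPM at 0 h to 63.2, 61.4 and 62.1 CPM at 48 h. Mybl2 and Foxm1, which drive the G2/M programme, rose by 5.63 ± 0.19 and 3.80 ± 0.15 on the log2 scale. Rbl2, the pocket protein p130 that represses these genes in resting cells, fell from 144, 129 and 149 CPM at 0 h to 42.5, 49.6 and 39.98 CPM at 48 h, while Rb1 was not called at 0.09 ± 0.099 on the log2 scale. Downstream, the DNA replication set held Mcm5, a subunit of the replicative helicase, at 66, 71.6 and 65.1 CPM at 0 h against 607, 552 and 551 CPM at 48 h, and Pcna, the polymerase clamp, at 138, 124 and 133 CPM at 0 h against 662, 627 and 666 CPM at 48 h. Mismatch repair had 18 of 22 tested members higher and 3 lower (median log2 fold change 1.32) and Homologous recombination 29 of 39 tested members higher and 7 lower (median log2 fold change 1.15). They overlap: 15 genes shared with DNA replication are 68.2% of the mismatch repair set and 42.9% of the replication set.

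Chromosome segregation genes formed the list with the highest median. Of the cohesin, condensin and kinetochore genes 27 of the 30 tested members were called higher and 1 lower, with a median log2 fold change of 4.73. Bub1, a kinase of the spindle checkpoint, had 0.84, 0.252 and 1.33 CPM at 0 h against 88.5, 95.3 and 105 CPM at 48 h, and Cenpf, a kinetochore protein, had 0.869, 1.23 and 1.14 CPM at 0 h against 109.6, 140.4 and 117 CPM at 48 h. The cohesin core changed little within the list: Smc1a rose by 0.55 ± 0.056, Smc3 by 0.47 ± 0.065 and Rad21 by 0.60 ± 0.062 on the log2 scale, and Smc4, a condensin subunit, was the only member that fell, from 606, 582 and 624 CPM at 0 h to 498, 512 and 518 CPM at 48 h. Of the histone variants and chaperones, 17 of 22 rose and 3 fell, with Chaf1a, which deposits histones behind the fork, up by 5.38 ± 0.095 on the log2 scale. Canonical core histone genes were low at both times, summing to 59.4, 64 and 48 CPM at 0 h against 86.7, 81.5 and 77.1 CPM at 48 h, and their transcripts lack a poly(A) tail, so these values depend on how RNA was selected, which was not given in the sources used here.

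In the list of chromatin and DNA methylation enzymes, 47.1% were higher and 44.1% lower, near the 38.6% and 39.1% over all tested genes. These were 16 and 15 of 34 tested members (median log2 fold change -0.16). That median was -0.05 without both libraries of replicate 3, -0.11 without 48 h replicate 3 and -0.27 with upper-quartile scaling. Uhrf1, which brings the maintenance methyltransferase to replicating DNA, had 11.1, 9.73 and 17.8 CPM at 0 h against 582, 582 and 558 CPM at 48 h, and that enzyme, Dnmt1, rose by 1.72 ± 0.080 on the log2 scale. Ezh2, the polycomb methyltransferase of cycling cells, rose from 18.1, 20.6 and 19.5 CPM at 0 h to 327, 329.8 and 368 CPM at 48 h, and its paralog Ezh1 fell from 91.2, 96.7 and 96.9 CPM at 0 h to 28.3, 28.4 and 24.9 CPM at 48 h. The genes of 4 large H3K4 methyltransferases, Kmt2a, Kmt2b, Kmt2c and Kmt2d, fell by 1.39, 0.89, 1.97 and 1.72, and Tet1, a DNA demethylase, by 2.63 on the log2 scale.

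Promoters of 3 cell cycle genes show letters that recur in these groups. They come from RefSeq on GRCm38.p6, a build that differs from the one used for counting, and run from 250 bases before to 50 bases after the annotated start. Capitals mark an E2F motif (TTTCCCGC or TTTGGCGC), a CCAAT box (CCAAT) or a cell cycle homology region, CHR (TTTGAA or TTCGAA), searched on both strands. Each is written 5′ to 3′ on the strand of its gene.
Mcm5 (chr8:75109259-75109558, plus strand; E2F and CCAAT in capitals): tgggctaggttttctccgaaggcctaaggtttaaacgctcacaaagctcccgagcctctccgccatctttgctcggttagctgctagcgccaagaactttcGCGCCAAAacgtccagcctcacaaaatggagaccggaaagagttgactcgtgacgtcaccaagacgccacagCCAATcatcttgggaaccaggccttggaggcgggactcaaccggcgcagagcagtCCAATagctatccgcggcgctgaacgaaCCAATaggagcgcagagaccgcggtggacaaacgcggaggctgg
Ccnb2 (chr9:70421505-70421804, minus strand; CCAAT and CHR in capitals): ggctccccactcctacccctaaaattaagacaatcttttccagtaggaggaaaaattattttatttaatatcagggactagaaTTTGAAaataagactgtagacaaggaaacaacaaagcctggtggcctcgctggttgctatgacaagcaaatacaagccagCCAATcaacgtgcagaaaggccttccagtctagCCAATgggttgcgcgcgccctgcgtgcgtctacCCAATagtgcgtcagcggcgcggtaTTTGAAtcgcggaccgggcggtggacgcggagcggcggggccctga
Cdk1 (chr10:69352863-69353162, minus strand; CCAAT and CHR in capitals): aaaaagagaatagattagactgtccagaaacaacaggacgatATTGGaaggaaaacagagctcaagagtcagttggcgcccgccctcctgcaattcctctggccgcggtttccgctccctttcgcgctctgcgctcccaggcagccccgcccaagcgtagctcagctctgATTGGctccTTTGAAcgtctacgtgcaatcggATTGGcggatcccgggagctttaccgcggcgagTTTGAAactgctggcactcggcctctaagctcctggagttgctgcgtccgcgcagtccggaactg

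Mcm5 carries 1 E2F motif and 3 CCAAT boxes in this window, and Ccnb2 and Cdk1 each carry 3 CCAAT boxes and 2 CHR motifs. RefSeq promoters matched 9541 of the 11853 tested genes, 12146 promoters in all. An E2F motif stood in 2.96% of them, in 31.4% of the promoters of the DNA replication set and in 20.7% of those of the cohesin, condensin and kinetochore list. The CHR letters stood in 14.2% of all, 17.1% of the replication set and 55.2% of the segregation list, and CCAAT in 38.2%, 48.6% and 62.1%. Among genes at least 8-fold higher the shares were 3.93% for E2F, 23.6% for CHR and 45.2% for CCAAT, and among genes at least 8-fold lower 0.265%, 22% and 32.9%. The CHR share was thus near the same in genes that changed strongly in either direction. The other motifs searched were an E-box (CACGTG), a sterol response element (TCACNCCAC), an ATF4 composite motif (TGATGNAA), an AP-1 site (TGANTCA) and a KLF motif (GGGTGNGG). Their shares over all, the 8-fold higher and the 8-fold lower genes were 9.95%, 9.06% and 6.37% for the E-box and 1.1%, 1.21% and 0.796% for the sterol element. They were 2.39%, 3.02% and 3.45% for ATF4, 4.95%, 7.25% and 8.49% for AP-1, and 19.5%, 22.1% and 23.3% for KLF. A base may count for several motifs, and a match is a run of letters, not a bound site.

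Most enzymes of nucleotide synthesis rose. In the nucleotide list 22 of the 26 tested members were called higher and 3 lower, with a median log2 fold change of 1.64. Rrm2, the S phase subunit of ribonucleotide reductase, had 2.98, 6.68 and 6.1 CPM at 0 h against 371, 389 and 397 CPM at 48 h, and Tk1, thymidine kinase, had 1.22, 2.82 and 1.28 CPM at 0 h against 97, 94.3 and 103 CPM at 48 h. Rrm2b, the alternative subunit used outside S phase, fell from 49.8, 34.3 and 51.4 CPM at 0 h to 14.1, 17.3 and 14.4 CPM at 48 h, so that the 2 subunits moved in opposite directions. Purine and pyrimidine enzymes rose less, Pfas by 2.40 ± 0.078, Umps by 2.40 ± 0.079 and Cad by 1.75 ± 0.072 on the log2 scale.

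Genes of serine and one-carbon metabolism, which feeds nucleotide synthesis, were mostly higher. Of the serine, folate and one-carbon enzymes, 13 of the 18 tested members were called higher and 2 lower, with a median log2 fold change of 1.72. The table's set Glycine, serine and threonine metabolism had 18 of 26 tested members higher and 3 lower (median log2 fold change 1.61). One carbon pool by folate had 10 of 18 tested members higher and 2 lower (median log2 fold change 1.19). Psat1, of the serine synthesis pathway, had 30.4, 28.7 and 30.5 CPM at 0 h against 363, 385 and 398 CPM at 48 h, and Phgdh, its first enzyme, rose by 2.32 ± 0.067 on the log2 scale. Shmt1 and Mthfd2, of the cytosolic and mitochondrial folate cycles, rose by 3.75 ± 0.081 and 2.99 ± 0.11 on the log2 scale. Asns, asparagine synthetase, rose from 0.261, 0.447 and 0.0272 CPM at 0 h to 37.1, 64.9 and 57.3 CPM at 48 h, a log2 fold change of 7.75 ± 0.38. Cth, which makes cysteine from cystathionine, had 1 count at 0 h and 9.04, 13 and 10.2 CPM at 48 h, a ratio of 1152 (95% counting interval 206 to 45534).
The Asns promoter is shown as 1 example that holds the ATF4 composite motif, here in capitals (RefSeq, GRCm38.p6, 5′ to 3′ on the gene's strand). That motif stood in 1 of the 18 promoters of the one-carbon list (5.56%) and in 2.39% of all promoters.
Asns (chr6:7693160-7693459, minus strand): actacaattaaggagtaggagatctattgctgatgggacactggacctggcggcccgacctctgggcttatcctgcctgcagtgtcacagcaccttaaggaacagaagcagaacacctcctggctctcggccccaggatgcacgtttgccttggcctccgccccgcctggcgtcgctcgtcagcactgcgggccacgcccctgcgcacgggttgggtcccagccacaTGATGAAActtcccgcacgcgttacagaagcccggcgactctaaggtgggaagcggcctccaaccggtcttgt

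Amino acid transporters and related pathways were mostly higher. Of the transporters 12 of the 16 tested members were called higher and 2 lower, with a median log2 fold change of 1.08. Slc7a5, the large neutral amino acid carrier, had 67.2, 60.6 and 61.5 CPM at 0 h against 521, 535 and 556 CPM at 48 h, and its heavy chain Slc3a2 rose by 0.93 ± 0.091 on the log2 scale. Slc43a2 and Slc38a9 fell, by 1.59 and 1.09 on the log2 scale. Arginine and proline metabolism had 25 of 30 tested members higher and 3 lower (median log2 fold change 1.48), including Odc1, the first enzyme of polyamine synthesis, at 91.8, 74.5 and 66.8 CPM at 0 h against 850.2, 807 and 809 CPM at 48 h, and Srm, spermidine synthase, up by 2.60 ± 0.085. Cysteine and methionine metabolism had 30 of 40 tested members higher and 5 lower (median log2 fold change 1.05) and Tyrosine metabolism 10 of 15 tested members higher and 2 lower (median log2 fold change 1.14). The tyrosine set holds Mif, a cytokine-like tautomerase that rose by 2.77 ± 0.062, and its median ranged from 0.33 to 1.45 on the log2 scale over the alternative analyses, the lowest with no filter on low counts.

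Lipid synthesis stood among the highest sets. Cyp51, the sterol demethylase, had 11.1, 10.4 and 19.7 CPM at 0 h against 460.02, 457 and 508 CPM at 48 h, and Sqle, squalene epoxidase, had 6.57, 6.54 and 11.2 CPM at 0 h against 225, 214 and 230.1 CPM at 48 h. Replicate 3 held the highest 0 h level of both but lay far below the 48 h range. Terpenoid backbone biosynthesis, which supplies sterol precursors, had 17 of 22 tested members higher and 2 lower (median log2 fold change 1.00), with Fdps, farnesyl diphosphate synthase, at 19.1, 19.9 and 28.6 CPM at 0 h against 289.6, 301 and 346 CPM at 48 h. Fatty acid biosynthesis had 12 of 17 tested members higher and 4 lower (median log2 fold change 1.17), and Fasn, fatty acid synthase, rose from 196, 206 and 234 CPM at 0 h to 1091, 935 and 883 CPM at 48 h. Fads2, a desaturase, was among the 20 largest rises, from 0.0869, 0.335 and 0.299 CPM at 0 h to 102, 120.5 and 119 CPM at 48 h. Lipg, an endothelial-type lipase, had 1 count over the 0 h libraries and 31.8, 25.8 and 28.5 CPM at 48 h, a ratio of 3068 (95% counting interval 550.3 to 121230). CCAAT boxes stood in 66.7% of the promoters of the 2 sterol sets and in 72.2% of those of the one-carbon list, against 38.2% of all. The sterol response element stood in 1 of the 36 promoters of the 2 sterol sets (2.78%), against 1.1% of all.

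Redox genes rose, most citrate cycle genes rose by less than 2-fold, and fatty acid oxidation genes moved in both directions or were not called. Of the pentose phosphate and redox genes 22 of the 24 tested members were called higher and 1 lower, with a median log2 fold change of 0.91. Txn1, thioredoxin, had 50.1, 54.8 and 51.7 CPM at 0 h against 454, 446 and 494 CPM at 48 h, and Tkt, transketolase, rose by 1.84 ± 0.064 on the log2 scale. Citrate cycle enzymes had 18 of 24 tested members higher and 2 lower (median log2 fold change 0.62), from Pcx, pyruvate carboxylase, at 1.87 ± 0.25 to Ogdh at -0.26 ± 0.063. Mitochondrial fatty acid oxidation had 4 of 18 tested members higher and 6 lower (median log2 fold change 0.07), a median that changed sign to -0.04 with upper-quartile scaling. Its largest change was in Cpt1a, the gate for fatty acid entry into mitochondria, which fell from 144, 143 and 73.4 CPM at 0 h to 32.3, 37.5 and 38.3 CPM at 48 h, with replicate 3 the low library at 0 h.

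Protein folding and proteasome genes were higher, and lysosomal genes lower. Of the proteasome subunits 35 of the 38 tested members were called higher and 1 lower, with a median log2 fold change of 1.18. Psmd1, a subunit of the regulatory particle, had 79.4, 89.2 and 87.4 CPM at 0 h against 338, 315 and 331 CPM at 48 h. Psmb10, an immunoproteasome catalytic subunit, was the only one that fell, from 140.3, 171 and 169.9 CPM at 0 h to 97.8, 92.2 and 96.8 CPM at 48 h, and the other 2 immunoproteasome subunits, Psmb8 and Psmb9, rose by only 0.28 ± 0.070 and 0.16 ± 0.064, against 1.61 ± 0.10 on the log2 scale for Psmb5, the catalytic subunit that Psmb8 replaces. The call of Psmb9 was lost under several alternatives, upper-quartile scaling and the replicate block among them. The list of chaperones of the cytosol and endoplasmic reticulum had 27 of 31 tested members higher and 3 lower (median log2 fold change 1.23). That list also holds Hspd1, the mitochondrial chaperonin, which had its largest rise. Hspd1 stood at 209.9, 179 and 225 CPM at 0 h against 1493, 1314 and 1539.9 CPM at 48 h. The chaperone genes Hspa1a, Hspa1b and Dnajb1 went the other way. Hspa1b fell from 479.9, 205 and 479 CPM at 0 h to 1.81, 1.63 and 2.02 CPM at 48 h and Hspa1a from 163, 57.4 and 156 CPM at 0 h to 0.216, 0.764 and 0.293 CPM at 48 h, 2 genes with near-identical sequences whose counts may be split, and Dnajb1 fell by 1.64 on the log2 scale. Replicate 2 was the lowest of the 0 h libraries for all 3. Dnaja1 was not called, at -0.00 ± 0.16 on the log2 scale, and without replicate 3 at 0 h, whose 376 CPM exceeded all other libraries, it was called higher by 0.26.

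In the autophagy and lysosome list 3 of the 36 tested members were called higher and 24 lower, with a median log2 fold change of -0.50. Lipa, the lysosomal acid lipase, fell from 97.7, 96.3 and 106 CPM at 0 h to 33.6, 30.1 and 29.4 CPM at 48 h, and Ctsd, a lysosomal protease, from 454, 447 and 403 CPM at 0 h to 162, 151 and 156 CPM at 48 h. Gabarapl1, an autophagosome protein, was the exception with 2.95, 4.95 and 6.04 CPM at 0 h against 72.6, 71.2 and 65.9 CPM at 48 h. Core autophagy genes such as Ulk1, Atg5 and Atg7 were not called, at -0.02 ± 0.093, -0.17 ± 0.082 and 0.20 ± 0.12 on the log2 scale.

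Most genes of the cytoskeletal list were higher at 48 h, and 4 were lower. In the actin, tubulin and motor list 24 of the 29 tested members were called higher and 4 lower, with a median log2 fold change of 1.51. Kif11, a mitotic spindle motor, had 2.55, 1.82 and 3.56 CPM at 0 h against 231, 238 and 238 CPM at 48 h, Stmn1, which destabilises microtubules, rose by 4.69 ± 0.11, and Tuba1b, an alpha-tubulin, by 2.18 ± 0.061 on the log2 scale. Tmsb4x, which sequesters actin monomers, fell from 2789, 3079 and 3204 CPM at 0 h to 1385, 1442 and 1452 CPM at 48 h, and Coro1a and Cotl1, actin regulators of leukocytes, fell by 1.04 and 1.27 on the log2 scale. Myh9, a myosin gene outside that list, fell by 1.46 on the log2 scale and was among the 10 largest losses in share of counts. It had 2728, 3052 and 3233 CPM at 0 h against 1201, 1083 and 1002 CPM at 48 h. Pfn1, profilin, was among the 10 abundant genes that changed least, at 1067, 1134 and 1237 CPM at 0 h against 1191, 1098 and 1152 CPM at 48 h.

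**Figure D4:**
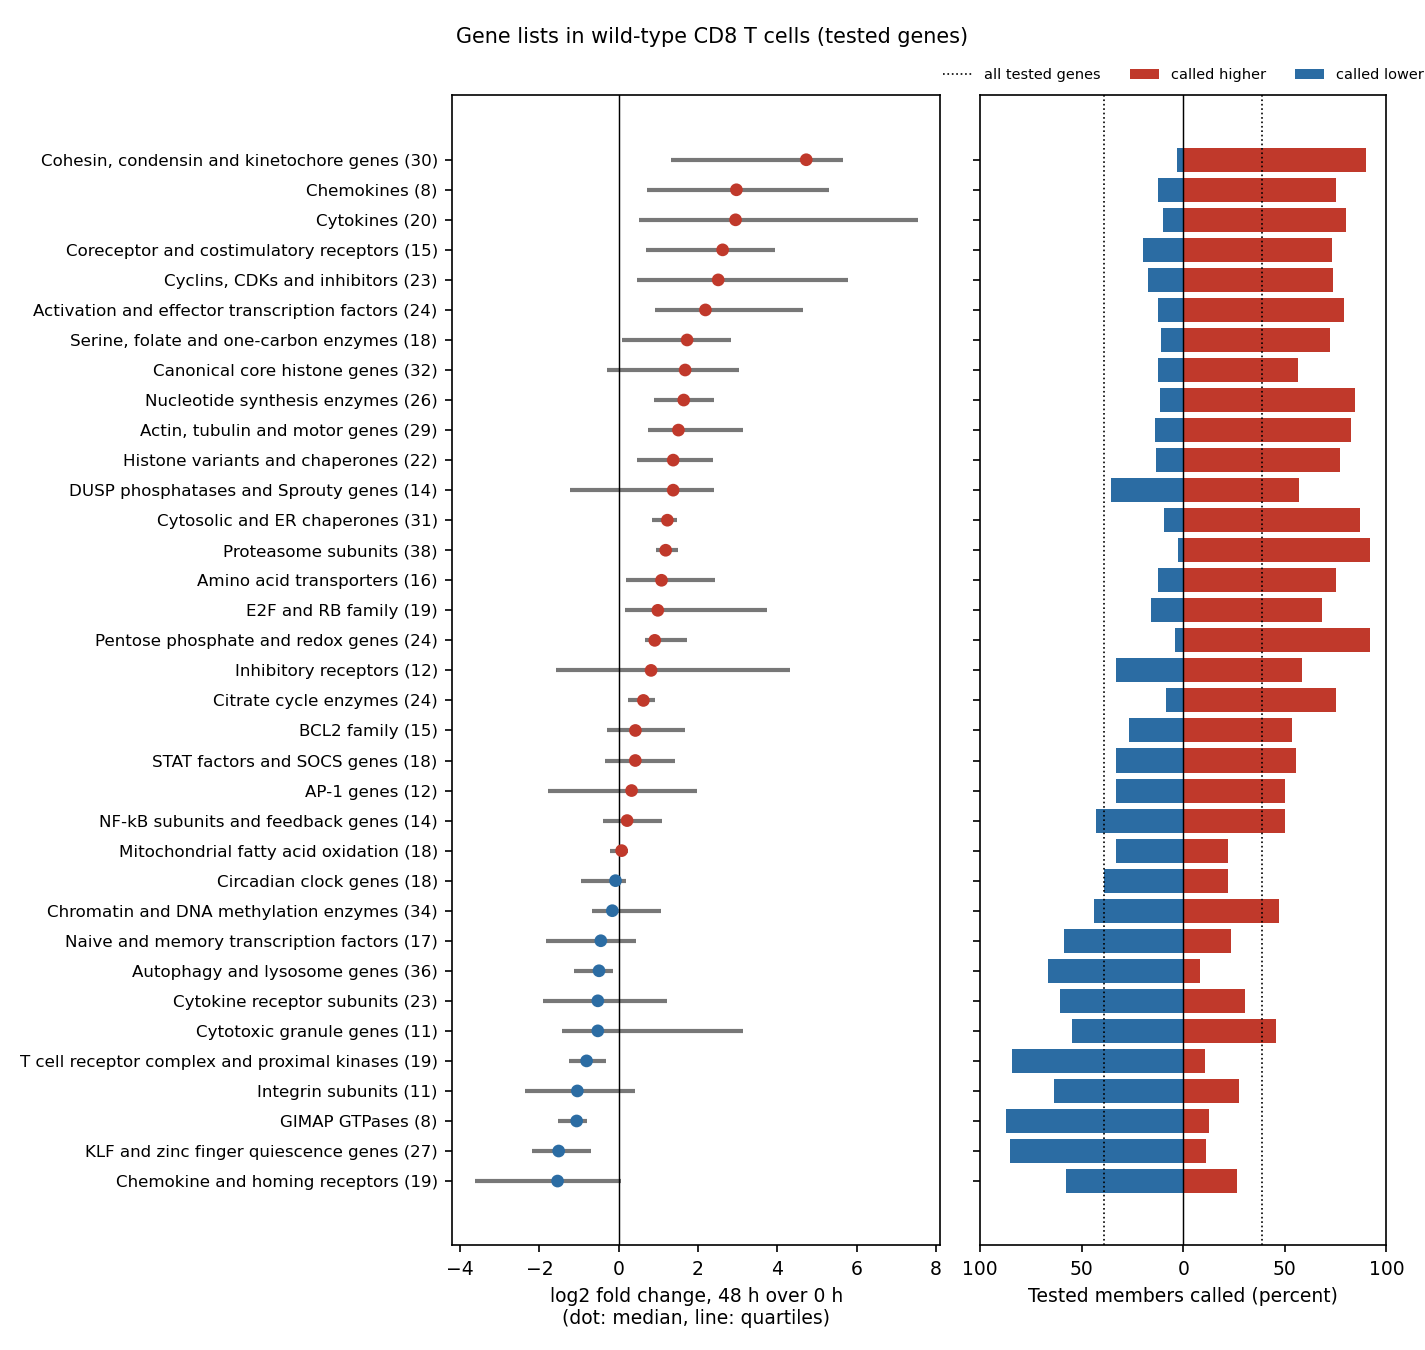
Gene lists ordered by median log2 fold change (48 h over 0 h; tested genes in brackets). Left, medians as dots and quartiles as lines; right, percent of tested members called higher (red) and lower (blue), with the shares over all tested genes, 38.6% and 39.1%, dotted. Cohesin, condensin and kinetochore genes stand at the top with a median of 4.73 and chemokine and homing receptors at the bottom with -1.54, a rank that the quiescence list took with the filter at a mean of 1 CPM and without 0 h replicate 2.

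The largest changes in each direction ran across several of these roles. Among the 20 highest log2 fold changes of called genes with a mean of at least 5 CPM and no overlap were Cdc25c, a phosphatase that activates CDK1, with 0.0869, 0.14 and 0.0272 CPM at 0 h against 17.7, 17 and 19.5 CPM at 48 h, and Slc2a6, a hexose carrier, with 0, 0.0559 and 0.109 CPM at 0 h against 13.8, 15.3 and 18.5 CPM at 48 h. Ak4, a mitochondrial adenylate kinase, and Dnph1, which hydrolyses nucleotides, rose by 8.48 ± 0.26 and 8.28 ± 0.41 on the log2 scale. Tg, thyroglobulin, is best known from the thyroid, and it had 0.145, 0.419 and 0 CPM at 0 h against 51.9, 55.4 and 56 CPM at 48 h. Among the 20 lowest, Sgk1, a kinase induced by glucocorticoids and salt, fell from 147, 107 and 87.1 CPM at 0 h to 3.99, 2.45 and 3.17 CPM at 48 h, and Dtx1, a Notch target and regulator of T cell anergy, from 281, 378 and 507 CPM at 0 h to 12.9, 11.6 and 11.9 CPM at 48 h. Ampd1, an AMP deaminase, fell by 5.53 on the log2 scale. Vcam1, an adhesion molecule of stroma and macrophages, fell from 17.3, 11.2 and 8.08 CPM at 0 h to 0.027, 0.0263 and 0 CPM at 48 h. Hbb-bs, Hba-a1, Cr2, Jchain and Lyz2, which are genes of red cells, B cells, plasma cells and myeloid cells, were also among the 20 lowest.

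The pathway sets with the lowest medians held genes of surface recognition. Complement and coagulation cascades contained Cd55, which protects cells from complement and fell from 109, 119 and 168 CPM at 0 h to 11.3, 10.01 and 9.63 CPM at 48 h, and Itgb2, the shared chain of leukocyte integrins, which fell by 1.10 on the log2 scale. Staphylococcus aureus infection had 4 of 31 tested members higher and 24 lower (median log2 fold change -3.07) and Hematopoietic cell lineage 12 of 64 tested members higher and 45 lower (median log2 fold change -1.93). Intestinal immune network for IgA production had 8 of 29 tested members higher and 17 lower (median log2 fold change -1.93), or a median of -1.19 with no filter on low counts, and its most abundant members that fell were Itgb7, Itga4, Cxcr4 and Ccr9, described above. Some members of these sets are also listed markers of other spleen cells, and the medians without them, a choice made after seeing the data, were -1.19 for the complement set (without 7 genes such as C1qa and Itgam), -2.00 for the staphylococcus set (without 5) and -1.58 for the lineage set (without 11). The marker lists hold no MHC class II genes, so such genes, H2-DMa of the staphylococcus set among them, were not removed. The staphylococcus and lineage sets share 10 and 11 genes with the Asthma set, described below.

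Antigen presentation genes of both classes fell. Of MHC class II, which mouse T cells largely lack and B cells, dendritic cells and macrophages carry, H2-Aa fell from 85.8, 43.1 and 73.3 CPM at 0 h to 9.79, 5.06 and 5.66 CPM at 48 h and H2-Ab1 from 60.1, 36.5 and 69.6 CPM at 0 h to 15.1, 17.2 and 13.8 CPM at 48 h. H2-Ob and H2-DMa, of the class II peptide-loading pathway, fell too, H2-DMa by 1.93 on the log2 scale. All are the most abundant members of the Asthma set that fell, with 4 of 16 tested members higher and 10 lower (median log2 fold change -2.00). MHC class I, carried by nearly all nucleated cells, fell less: H2-K1 from 3954, 4167 and 4224 CPM at 0 h to 1713, 1765 and 1786 CPM at 48 h and H2-D1 by 0.90, all 48 h libraries below all 0 h libraries. Class I genes are close copies of each other, so their separate counts are uncertain. They are the most abundant members that fell in 4 sets, Graft-versus-host disease, Type I diabetes mellitus, Allograft rejection and Autoimmune thyroid disease, whose medians ran from -1.26 to -1.18 and which share most of their genes: 34 genes common to the first pair are 94.4% of the former and 91.9% of the latter. In the 4 sets, in that order, 10, 12, 11 and 11 members were called higher and 24, 23, 22 and 22 lower, of 36, 37, 36 and 36 tested. The remaining low sets were Protein digestion and absorption, Carbohydrate digestion and absorption and Glycosphingolipid biosynthesis - ganglio series, at -1.31, -1.23 and -1.22. They had 7 of 36, 5 of 17 and 5 of 13 tested members higher, and 21, 10 and 7 lower. The 5 of 13 is near the 38.6% called higher over all tested genes. Several medians of these low sets moved with the setting. Protein digestion and absorption was at -2.47 without 48 h replicate 1 and -2.32 without 48 h replicate 2, and Carbohydrate digestion and absorption at -0.76 without 48 h replicate 3. With no filter on low counts Carbohydrate digestion and absorption was at -0.56 and Autoimmune thyroid disease at -0.59. The digestion sets hold the sodium pump genes Atp1b3 and Atp1b1, which fell by 1.67 and 2.42, and the ganglioside set B4galnt1 and St3gal1, which fell by 1.22 and 2.50 on the log2 scale.

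Most markers of other spleen cells fell as well. Sums here run over all listed markers, tested or not. The 16 B cell markers summed to 233, 175 and 299 CPM at 0 h against 58.2, 41.2 and 51.8 CPM at 48 h. Of the 15 tested, 14 were called lower (median log2 fold change -2.55). The 22 myeloid markers summed to 215, 254 and 196 CPM and 59.9, 71.1 and 74.4 CPM. Of the 18 tested, 16 were lower, and most of the sum was Ly6c2, which T cells also express. Csf1r, C1qb, C1qc, Tyrobp and Clec4a2 had 0 counts at 48 h; Csf1r held 9.55, 7.18 and 6.59 CPM at 0 h, at least 299.6-fold more than the floor of 3 counts over the 48 h group. The median log2 fold change of the myeloid list was -5.13, or -5.01 with such genes at their bound.

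Erythroid markers summed to 19.7, 116 and 14.5 CPM at 0 h, with replicate 2 the high library, and to 1.19, 1.21 and 0.975 CPM at 48 h, and all 5 tested fell (median log2 fold change -7.41). Platelet markers summed to 11.7, 8.78 and 10.6 CPM and 1.08, 1.4 and 1.58 CPM and all 5 tested fell (median log2 fold change -5.04, or -4.23 with genes at 0 at their bound). The 7 tested stromal markers all fell (median log2 fold change -6.40, or -5.33 at the bound), and the sums of the list were set by Pecam1, which leukocytes also carry. A single stromal marker passed the filter at a mean of 1 CPM, at -1.76. NK and dendritic markers gave sums that were higher at 48 h, 137, 154 and 152 CPM against 54.3, 44.9 and 58.3 CPM, and 103, 143 and 151 CPM against 64.2, 79.8 and 70.8 CPM, but few members drove these sums. In the NK list Eomes and Klrk1, which CD8 T cells also express, rose and the other 7 of 9 fell, with a median log2 fold change of -5.02, or -1.44 over the 5 members left by the filter at a mean of 1 CPM. In the dendritic list Batf3, Zbtb46 and Bst2 rose and Itgax and Flt3 fell, with Xcr1 and Clec9a too low to be tested. The CD4 and regulatory list had a higher sum at 48 h, mostly Ctla4, with Foxp3 not called at 0.44 ± 0.28 on the log2 scale. The part of these markers in the lower MHC class II, complement and lineage sets was not tested beyond the medians given above.

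**Figure D5:**
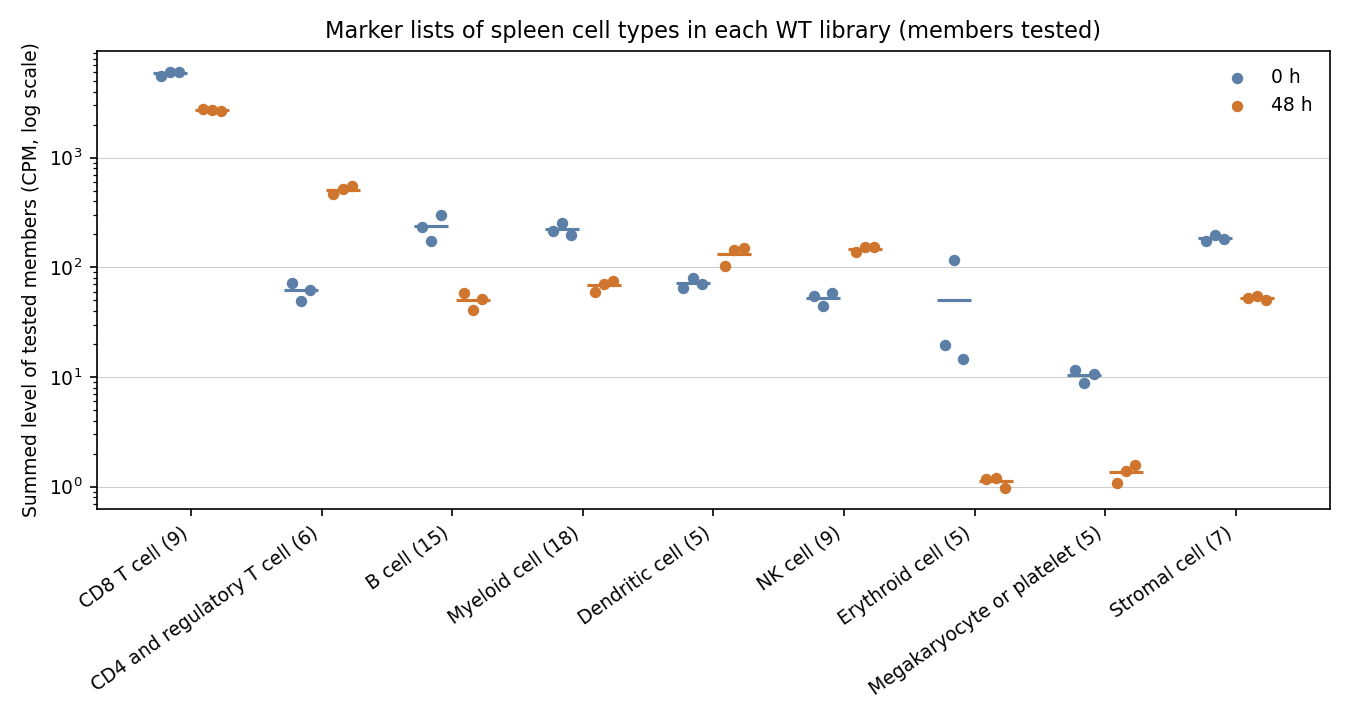
Summed level of each marker list (CPM, log scale, members tested in brackets) in each WT library, 0 h in blue and 48 h in orange, with bars for group means. The sums run over all listed members, tested or not, although the axis reads tested members. B cell, myeloid, erythroid, platelet and stromal sums are lower at 48 h with no overlap; the CD8 T cell sum is lower too but remains the highest sum in every library, and the dendritic, NK and CD4 lists are higher.

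Some genes were found at only 1 of the 2 times. With 0 counts in the 0 h libraries there were 45 tested genes, and with 0 counts at 48 h 65. Pla1a, a phospholipase, and Etv4, an ETS factor, had 0 counts at 0 h, and 2.64, 4.21 and 3.78 CPM and 2.48, 2.24 and 3.1 CPM at 48 h, at least 127-fold and 93.5-fold higher. Slc40a1, the iron exporter ferroportin, had 0 counts at 48 h and 3.16, 5.39 and 7.67 CPM at 0 h, at least 211-fold lower, and Cacna1i, a calcium channel subunit, had 2.72, 2.49 and 2.8 CPM at 0 h, at least 103-fold lower. The 0 h values of Cacna1i were close to each other, while Slc40a1 was highest in replicate 3. The pancreatic enzyme genes Amy2a1, Try4 and Pnliprp1 also had 0 counts at 48 h, with 0.029, 3.55 and 14 CPM, 0, 2.82 and 7.27 CPM and 0, 1.84 and 7.54 CPM in the 0 h libraries.

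Where libraries of 1 group differed most, replicate 3 at 0 h and replicate 1 at 48 h often held the lowest level. Trnp1, a nuclear regulator of proliferation, had 93.1, 42.6 and 4.41 CPM at 0 h against 0.539, 0.158 and 0.146 CPM at 48 h, and Coro2a, an actin-binding protein, had 176, 119 and 36.9 CPM at 0 h against 164, 136 and 164 CPM at 48 h. Both were lowest in replicate 3 at 0 h, Coro2a was not called, and Trnp1 was called lower by edgeR (log2 fold change -7.38 ± 1.08) but not by limma-voom. At 48 h several interferon-stimulated genes were lowest in replicate 1. Isg15 had 11.1, 24.1 and 19 CPM at 0 h against 20.3, 57.6 and 54.4 CPM at 48 h. Ifit1 had 28.7, 50.2 and 32.6 CPM at 0 h against 17.9, 44.6 and 36.5 CPM at 48 h. Ifit3 had 29.5, 70.2 and 37.8 CPM at 0 h against 25.1, 60.9 and 51.9 CPM at 48 h. Replicate 1 was the lowest at 0 h as well for each of them. Dtx3l, among the genes that varied most at 48 h, was instead highest in replicate 1 at that time, at 185, 67.6 and 121 CPM. Isg15 was called higher, at 1.29 ± 0.35, and Ifit1 and Ifit3 were not called, at -0.17 ± 0.28 and 0.00 ± 0.33 on the log2 scale. Trib3, a pseudokinase induced by the integrated stress response, rose by 4.47 ± 0.43 on the log2 scale and was also lowest in replicate 1 at 48 h, with 16.6, 40.2 and 29.2 CPM.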

How the data were processed

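RNA-seq libraries of splenic CD8 T cells were described from the deposited table of counts, whole-number reads per gene. Per the submitters' processing notes, the tools included HTSeq 0.11.2 and HISAT2 2.1.0, along with SAMtools 1.9, fastp 0.20.1 and FastQC 0.11.9, and the genome build was GRCm39; whether counting used strand was not given in the sources used here, so antisense and overlapping genes are uncertain. Gene families with near-identical copies, such as histones, tubulins, ribosomal proteins, haemoglobins and MHC class I genes, share reads and are uncertain as well.

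From the deposited counts, 11853 of 16352 genes passed filterByExpr of edgeR 4.0.16 (R 4.3.3), set to at least 10 counts in enough libraries and at least 15 in total. The 6 WT libraries were scaled by TMM (factors 0.9698 to 1.034) and tested with glmQLFit and glmQLFTest, with Benjamini-Hochberg adjustment over all tested genes at 0.05, 3 libraries a group and 4 residual degrees of freedom. The procedure was also run on simulated counts in which few genes changed. In these data 77.8% of tested genes were called, so that run cannot show how the scaling holds where most genes change. Standard errors were derived as the size of the log2 change over the root of its F statistic. Where a group had 0 counts, a bound used a floor of 3 counts over its 3 libraries; bounds and counting intervals (95%) cover counting error only.

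Gene lists, marker lists and the comparison itself were chosen with earlier results of these data known. Named genes were the 20 largest changes in each direction among genes with a mean of at least 5 CPM and no overlap, members of the described lists, up to 4 abundant called members of each pathway set, genes with 0 counts at one time, genes whose share of counts moved most, abundant genes that changed least, and genes that varied most within a group. Lists are described by counts and medians, with no set test. Libraries of the same replicate number deviated together, with correlations of deviations of 0.106, 0.11 and 0.195 over 11853 genes. For different numbers they ran from -0.109 to 0.000531, partly because deviations from a group mean sum to 0. Pairing by number is thus taken from the titles and this check, not from a stated animal. The main calls and standard errors come from the unpaired fit. Alternatives were other scalings and filters, DESeq2 1.42.0, limma-voom (limma 3.58.1), all 12 libraries in the fit, the replicate block and leaving libraries out. Promoter sequences are RefSeq's on GRCm38.p6 and give no position on the counting build.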

Additional observations from a re-analysis of the deposited data

How the results depend on the processing

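The main counts of 4580 genes higher and 4638 lower, with 2535 and 2296 changed at least 2-fold, stayed within 1.5 times of these values under every alternative run. RLE scaling gave 4610 and 4605, no filter on low counts 4654 and 4915, a filter at a mean of 1 CPM 4255 and 4379, DESeq2 4698 and 4809, limma-voom 4636 and 4678, and a fit of all 12 libraries 4583 and 4768. Upper-quartile scaling moved the median of all genes by -0.1126 and gave 4125 and 5060; directions of genes within that shift of 0 are relative to it. The paired analysis with the replicate block gave 4538 higher and 4588 lower, 9028 genes being called in both fits in the same direction and 0 in opposite directions, and changed no count by over 1.5 times. Leaving out each library in turn gave 4355 to 4530 higher, 4442 to 4559 lower, 2477 to 2588 at least 2-fold higher and 2285 to 2390 at least 2-fold lower. Without both libraries of replicate 3 they were 4291 and 4286. Among 908 named genes, 0 to 28 lost their call under an alternative, and Dnaja1 was the only one of them that changed sign with a call in either fit: from -0.00 to 0.26 without WT 0 h replicate 3 and to 0.2465 without both libraries of replicate 3, against -0.166 without WT 0 h replicate 2. The median of the 5 tested dendritic cell markers, 0.74, was -3.174 with no filter on low counts, -3.197 with DESeq2, -1.216 with all 12 libraries, and from -4.018 to 0.7423 when single libraries were left out; those alternatives tested 9, 9, 6 and 5 to 7 members of the list. The pathway medians without the listed markers of other spleen cells were chosen after seeing the data. Depth limits genes of a few counts: a floor of 3 counts over a group was 0.0280 CPM at 0 h and 0.0259 CPM at 48 h.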
